A study of Mus musculus with 6 samples.

Results

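Metabotropic glutamate receptors were followed through 6 genes, Grm2, Grm3, Grm4, Grm5, Grm7 and Grm8, in RNA bound to the ribosomes of layer 5 cortical neurons from mice that drank fluoxetine or its vehicle. The members are the probe sets whose platform annotation names exactly 1 gene and that gene is one of the 6. There are 9 such probe sets of 45037 on the array, and the 6 genes stand among 18193 genes with a probe set of their own. Grm7 has 3 probe sets, Grm5 has 2, and Grm2, Grm3, Grm4 and Grm8 have 1 each. One further probe set is annotated to Grm2 and a predicted gene together and was left out by that rule. Of the 9, 7 were kept for testing because the mean of at least 1 treatment group reached an intensity of 50, and these 7 cover all 6 genes.

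Metabotropic receptors are G protein-coupled receptors for glutamate, slower than the ion-channel receptors that carry fast excitation. Grm5 belongs to group I, which couples through Gq to phospholipase C and the release of stored calcium, and it sits mainly beside the postsynaptic density, tethered by Homer proteins. Grm2 and Grm3 form group II, and Grm4, Grm7 and Grm8 group III, both of which couple through Gi/o to lower cAMP. Many of these last 5 receptors act on axon terminals as brakes on transmitter release. Grm3 is also known as a receptor of astrocytes.

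The mice were of the Glt25d2 bacTRAP line DU9. Their transgene expresses a tagged ribosomal protein under regulatory DNA of Glt25d2 (now Colgalt2), a gene of layer 5 pyramidal cells, on a background crossed from FVB to C57BL/6 for 3 to 5 generations. The treated group drank 0.167 mg/ml fluoxetine, an antidepressant that blocks serotonin reuptake, in 1% saccharine, and the vehicle group 1% saccharine alone, both for 15 to 18 days. RNA was purified from cortex through the tag and measured on 6 Affymetrix arrays, 3 per group. The labels call these biological replicates and do not say how many animals each holds. The short description of each sample names the opposite treatment from its title, source and treatment fields. Groups follow those 3 fields, so arrays are called fluoxetine-titled and vehicle-titled, and the sign of every difference would turn if the description were right. Values are GCRMA intensities on a linear scale. Each probe set has its own hybridisation efficiency, so no level is compared between genes. A lower value in such purified RNA can come from fewer labelled cells, from less RNA per cell or from less RNA of other cells in the sample. These cannot be told apart.

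All 6 genes gave signal in both groups. No receptor passed the test for a difference between treatments. The 7 probe sets kept had log2 differences, fluoxetine-titled minus vehicle-titled, between -0.32 and 0.16, with a median of -0.030. In limma, 0 of the 7 passed an adjusted p of 0.05 (adjusted p = 1 for each), against 0% of all 19073 probe sets kept. At an unadjusted p under 0.05 there were 0 of the 7, against 0.634% of all probe sets. This fit leaves the replicate number aside, so variation between replicate numbers enters its error. With the replicate number as a block, 1 of the 7 was under that limit, against 4.02% of all probe sets, and 0 passed the adjustment. The median standard error over all probe sets was 0.177 without the block and 0.114 with it. Without the block, the 95% intervals of all 7 differences lay within 2-fold in either direction, and those of Grm2, Grm4, Grm7 and the brighter Grm5 probe set lay within 1.5-fold.

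**Figure D1:**
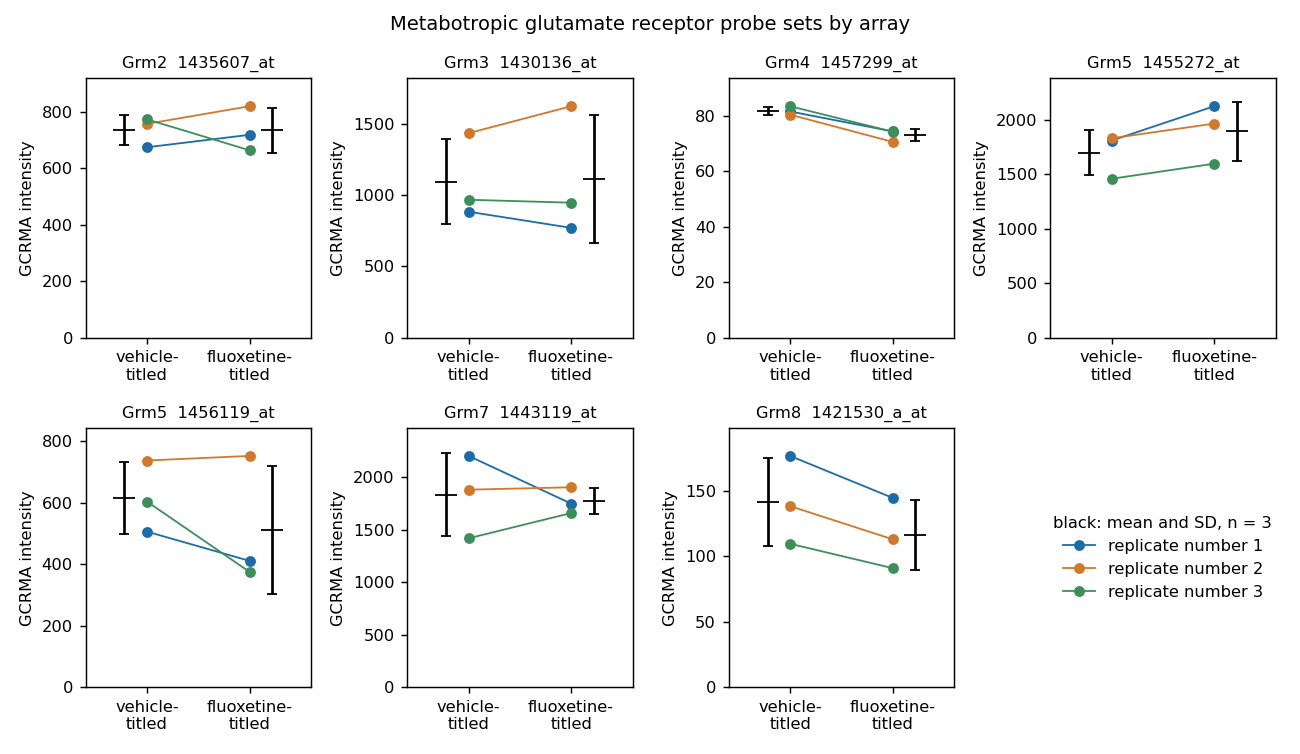
GCRMA intensity (linear scale from 0) of the 7 probe sets kept, on the vehicle-titled and the fluoxetine-titled arrays. Coloured lines join arrays of equal replicate number, and black bars give the mean and SD of each group (n = 3). The lines of Grm4 and Grm8 all fall from left to right and those of the first Grm5 panel all rise, while the lines of Grm3 lie far apart by replicate number.

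Grm5 is the Gq-coupled member, and its probe sets did not move together. The brighter one, 1455272_at, had intensities of 2122, 1963 and 1595 on fluoxetine-titled arrays 1, 2 and 3, and of 1807, 1828 and 1457 on the vehicle-titled arrays of the same numbers. The fluoxetine-titled array was the higher of each pair. Both arrays numbered 3 were low, and the groups overlapped because fluoxetine-titled array 3 lay below vehicle-titled arrays 1 and 2. The group means were 1893 ± 270 and 1697 ± 209 (SD, n = 3 each). The log2 difference was 0.16 ± 0.17 (SE), with a 95% interval from -0.24 to 0.55. It was the 1 probe set of the 7 that was higher in all 3 pairs, against 10.9% of all probe sets kept.

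The dimmer Grm5 probe set, 1456119_at, had intensities of 410.9, 751.8 and 375.0 on the fluoxetine-titled and 505.8, 736.9 and 603.4 on the vehicle-titled arrays. Here both arrays numbered 2 were the highest, and the fluoxetine-titled array was lower in pairs 1 and 3 and slightly higher in pair 2. The log2 difference was -0.32 ± 0.29, with an interval from -0.99 to 0.35, and its pair values were -0.30, 0.029 and -0.69. The difference moved with most single arrays left out. It was -0.20, -0.63 and -0.13 without fluoxetine-titled arrays 1, 2 and 3, and -0.45, -0.18 and -0.32 without the vehicle-titled arrays of those numbers. The log2 ratio of the brighter to the dimmer probe set was 2.37, 1.38 and 2.09 on the fluoxetine-titled and 1.84, 1.31 and 1.27 on the vehicle-titled arrays. That ratio was higher in the fluoxetine-titled array of each pair, by 0.53, 0.074 and 0.82, and by 0.47 between the group means. An exact two-sided permutation test that leaves the pairing aside gave p = 0.2, where 3 arrays against 3 cannot give less than 0.1, so the test could not have called a difference between the probe sets. The sign of the mean difference for Grm5 depends on the probe set read.

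In group II, neither Grm2 nor Grm3 differed between treatments by more than the spread between arrays. Grm2, a release-limiting receptor found on glutamatergic terminals, had intensities of 718.0, 819.2 and 663.1 on the fluoxetine-titled and 674.0, 756.8 and 772.7 on the vehicle-titled arrays. The values interleaved, with pair differences of 0.091, 0.11 and -0.22 on the log2 scale. The group means were 733.4 ± 79.2 and 734.5 ± 53.0 (SD, n = 3 each), and the log2 difference of -0.0051 ± 0.14 had an interval from -0.33 to 0.32, or 0.794-fold to 1.25-fold.

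Grm3 had intensities of 770.2, 1623 and 946.6 on the fluoxetine-titled and 883.3, 1434 and 967.2 on the vehicle-titled arrays. Both arrays numbered 2 stood well above the other 4, in either treatment, while the treatments were close within each pair (log2 differences of -0.20, 0.18 and -0.031). The log2 difference was -0.017 ± 0.31, with an interval from -0.74 to 0.71, and the width of that interval comes from the gap between the arrays numbered 2 and the rest: with the replicate number as a block it ran from -0.29 to 0.26.

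Of the 7 probe sets kept, 2 were lower in the fluoxetine-titled array of every pair, against 13.4% of all probe sets kept. Both, those of Grm4 and Grm8, belong to group III, whose other member, Grm7, went both ways. Grm8, a receptor of axon terminals, had intensities of 144.6, 113.0 and 91.0 on the fluoxetine-titled and 176.6, 138.3 and 109.6 on the vehicle-titled arrays. In both groups array 1 was the highest and array 3 the lowest, so the groups overlapped although each fluoxetine-titled array lay below its partner. The pair differences were nearly equal, at -0.29, -0.29 and -0.27 on the log2 scale, a ratio of 0.822 overall. The group means were 116.2 ± 27.0 and 141.5 ± 33.6 (SD, n = 3 each), and the log2 difference was -0.28 ± 0.24, with an interval from -0.84 to 0.27. With the replicate number as a block the standard error fell to 0.098 and the interval ran from -0.52 to -0.048. That made Grm8 the 1 of the 7 probe sets past an unadjusted threshold of 0.05 in the blocked limma fit, which 4.02% of all probe sets passed. It ranked 348 of 19073 in that fit and did not pass the adjustment (limma adjusted p = 0.993). Leaving out a single array breaks a pair, and the difference was then -0.45 without fluoxetine-titled array 1 or vehicle-titled array 3, -0.11 without vehicle-titled array 1 and -0.12 without fluoxetine-titled array 3.

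Grm4, another receptor that acts on axon terminals, had intensities of 74.4, 70.6 and 74.2 on the fluoxetine-titled and 81.5, 80.4 and 83.4 on the vehicle-titled arrays. The groups did not overlap, and the arrays within each were close to each other. The group means were 73.1 ± 2.15 and 81.8 ± 1.53 (SD, n = 3 each), not far above the intensity minimum of 50. The log2 difference was small, -0.16 ± 0.12, a ratio of 0.893, with an interval from -0.44 to 0.11. An exact two-sided permutation test gave p = 0.1, the smallest that 3 arrays against 3 allow. Grm4 was the 1 of the 7 whose fluoxetine-titled values all lay below the vehicle-titled ones, against 2.01% of all probe sets kept. Together with Grm8 it made 2 of the 7 that were lower in all 3 pairs, against 13.4% of all probe sets. Limma's error for Grm4 is larger than the spread of its own 6 values because the fit draws each probe set's variance towards that of the whole array. Its unadjusted limma p therefore depended on the filter, with 0.201 in the main fit and 0.0292 without the intensity minimum. It passed the adjustment in neither.

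Grm7, a receptor of the release site itself, was read by 1 probe set with signal. That one, 1443119_at, had intensities of 1747, 1902 and 1657 on the fluoxetine-titled and 2200, 1879 and 1417 on the vehicle-titled arrays. The fluoxetine-titled values lay inside the range of the vehicle-titled ones, and the pair differences went both ways, with -0.33, 0.018 and 0.23. The log2 difference was -0.030 ± 0.18, with an interval from -0.46 to 0.40. Its other probe sets lay far below the minimum, 1458861_at between 11.3 and 12.4 and 1459532_at between 7.86 and 10.3 over the 6 arrays. Fitted without the minimum, their log2 differences were -0.076 ± 0.057 and -0.16 ± 0.11 (limma adjusted p = 1 for both), and at this signal they say nothing of the gene's level.

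**Figure D2:**
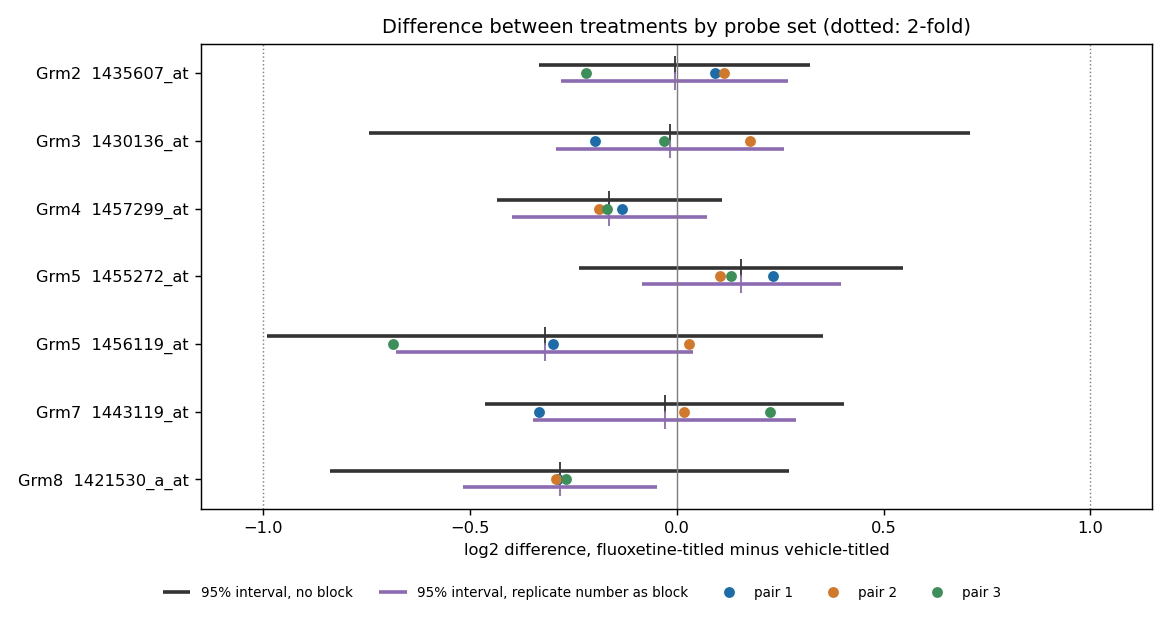
Log2 difference, fluoxetine-titled minus vehicle-titled, for the 7 probe sets kept. Dots are the 3 pairs of arrays of equal replicate number, bars are limma's 95% intervals without (black) and with (purple) the replicate number as a block, and dotted lines mark 2-fold. The 3 dots of Grm8 lie on top of each other near -0.29, and its purple bar alone stays on one side of 0.

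In every probe set kept but that of Grm4, more of the variation lay between replicate numbers than between treatments. There are more replicate numbers than treatments, so a larger share for the replicate number is in part built in. The median over all probe sets kept is therefore given beside the shares. For Grm3, 96.0% of the sum of squares of log2 intensity over the 6 arrays lay between replicate numbers and 0.048% between treatments. The first share was 79.3% for Grm8, 79.1% and 68.6% for the probe sets of Grm5, 64.5% for Grm7 and 50.0% for Grm2, against a median of 69.9% over all probe sets kept. Grm4 was the exception, with 9.68% between replicate numbers and 88.6% between treatments, against a median of 5.35% for treatment over all probe sets. The total spread of Grm4 was small. Its SD of 0.095 on the log2 scale lay below that of all but 8.12% of probe sets, and Grm2 was nearly as even, with an SD of 0.12. The SDs of Grm3 and of the dimmer Grm5 probe set were 0.42 each, above 90.1% of probe sets, and that of Grm8 was 0.34. The median over all probe sets was 0.21.

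**Figure D3:**
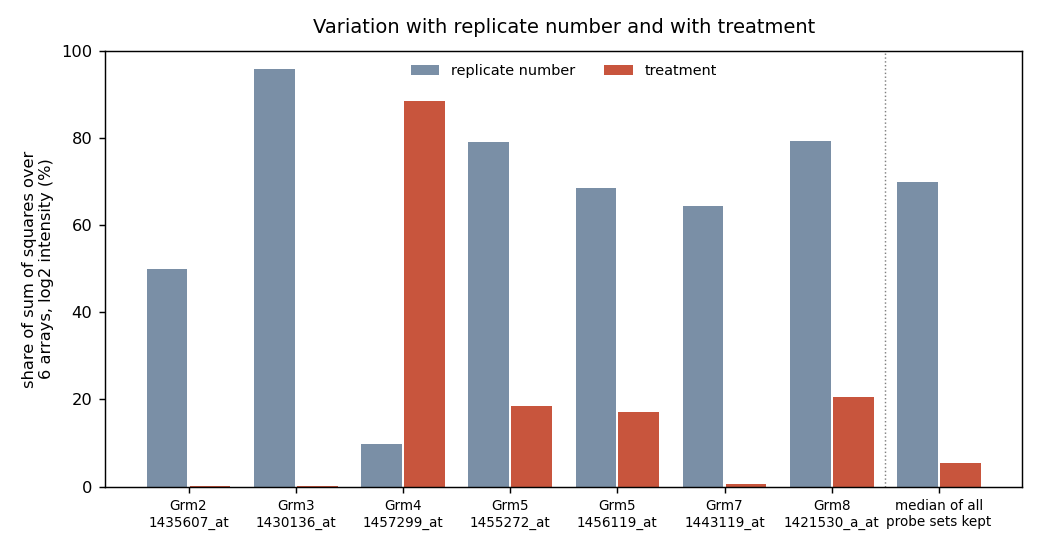
Share of the sum of squares of log2 intensity over the 6 arrays, in percent, that lies between replicate numbers (grey) and between treatments (red), for each probe set kept and as the median of all 19073. Grm4 stands apart with 88.6% between treatments, and Grm3 has 96.0% between replicate numbers.

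The arrays also gave signal for markers of cells other than the labelled neurons, and that signal differed between arrays. The layer 5 markers measured (7 genes, among them Colgalt2 with 709.2 to 986.1 over the 6 arrays) were all above the minimum. So were 14 of 14 astrocyte, 10 of 10 interneuron and 7 of 7 oligodendrocyte markers, 7 of 9 microglia markers and 5 of 8 vessel markers. Over the whole array, 10830 of 18193 genes passed the same minimum, a share near that of the vessel markers. Of the astrocyte markers, the fluoxetine-titled mean was the higher for 13 of 14, with summed intensities of 52900 to 62070 against 38430 to 64260. That difference lay in pair 3, where the list's median log2 difference was 0.73, against -0.036 and -0.019 in pairs 1 and 2. Summed intensities lean on the brightest probe sets of a list, for astrocytes those of Clu (18130 to 28870) and Aldoc (9511 to 17120). Interneuron markers were higher in 6 of 10, with sums of 33660 to 37820 against 30620 to 38350 and medians of -0.086, -0.024 and 0.40 in pairs 1, 2 and 3. Oligodendrocyte markers were higher in 5 of 7, with sums of 25830 to 30820 against 18910 to 33510. The low array in these lists was vehicle-titled array 3, at -0.59, -0.46 and -0.46 relative to the mean over arrays for astrocyte, interneuron and oligodendrocyte markers. Microglia markers were higher in 6 of 7 (median 0.20) and oligodendrocyte precursor markers in 5 of 6 (median 0.18), again by pair 3 (0.67 and 0.66). For the vessel markers the difference was positive for all 5 kept, 4 of them in all 3 pairs. In 2, Acta2 and Abcb1a, all fluoxetine-titled values lay above the vehicle-titled ones. Over all genes kept, these shares were 47.8%, 10.9% and 1.63%. The vessel list had median log2 differences of 0.36, 0.55 and 0.35 in pairs 1, 2 and 3, and sums of 1736 to 1995 against 1230 to 1605. Layer 5 markers were lower in 6 of 7, with a median of -0.14 (0.0036, -0.125 and -0.224 in pairs 1, 2 and 3), markers of other cortical layers higher in 5 of 8, with a median of 0.028, and markers of striatum, thalamus and hippocampus higher in 2 of 4, with a median of -0.10.

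Set beside these lists, Grm3 was highest on both arrays numbered 2, where the astrocyte median stood at 0.22 and 0.20 above its mean over arrays. That rise was not particular to astrocyte markers. On fluoxetine-titled and vehicle-titled array 2 the medians were 0.247 and 0.331 for oligodendrocyte, 0.311 and 0.315 for oligodendrocyte precursor, 0.246 and 0.22 for interneuron and 0.187 and 0.327 for microglia markers. They were 0.0695 and -0.482 for vessel and -0.237 and -0.0376 for layer 5 markers. Grm3 was low on vehicle-titled array 1, where the astrocyte median stood at 0.135. On vehicle-titled array 3, the low array of the astrocyte list, its intensity of 967.2 was close to the 946.6 of its partner. The astrocyte glutamate transporter gene Slc1a3 had 372.4, 499.2 and 382.0 on the fluoxetine-titled and 444.6, 509.7 and 212.9 on the vehicle-titled arrays. It was highest in pair 2, as Grm3 was, but unlike Grm3 it was much lower on vehicle-titled array 3 than on the partner of that array. Slc1a2, the main glial glutamate transporter, had 2207, 5679 and 4101 on the fluoxetine-titled and 2543, 4594 and 3392 on the vehicle-titled arrays, highest in pair 2 as Grm3 was. Astrocyte markers did not share 1 pattern. Aldh1l1, Ndrg2, Aldoc and Fgfr3 were, like Slc1a2 and Slc1a3, highest on the array numbered 2 of each group. The other markers of the list (Aqp4, Gja1, Gfap, Slc4a4, Ntsr2, Clu, S100b and Sox9) were not. Among them, Aqp4 was highest on the arrays numbered 1 (665.4 and 672.9) and S100b lowest on those numbered 2 (806.4 and 712.0). The dimmer Grm5 probe set was also high in pair 2, and in pair 3 it was lower by 0.69 on the log2 scale in the fluoxetine-titled array, opposite in sign to the astrocyte, interneuron and oligodendrocyte medians of that pair and of the same sign as the layer 5 median. Grm8 was lower in each pair, while vessel markers had a positive median in each pair and the glial and interneuron lists mainly in pair 3. The part of other cell types in the receptor values was not tested.

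**Figure D4:**
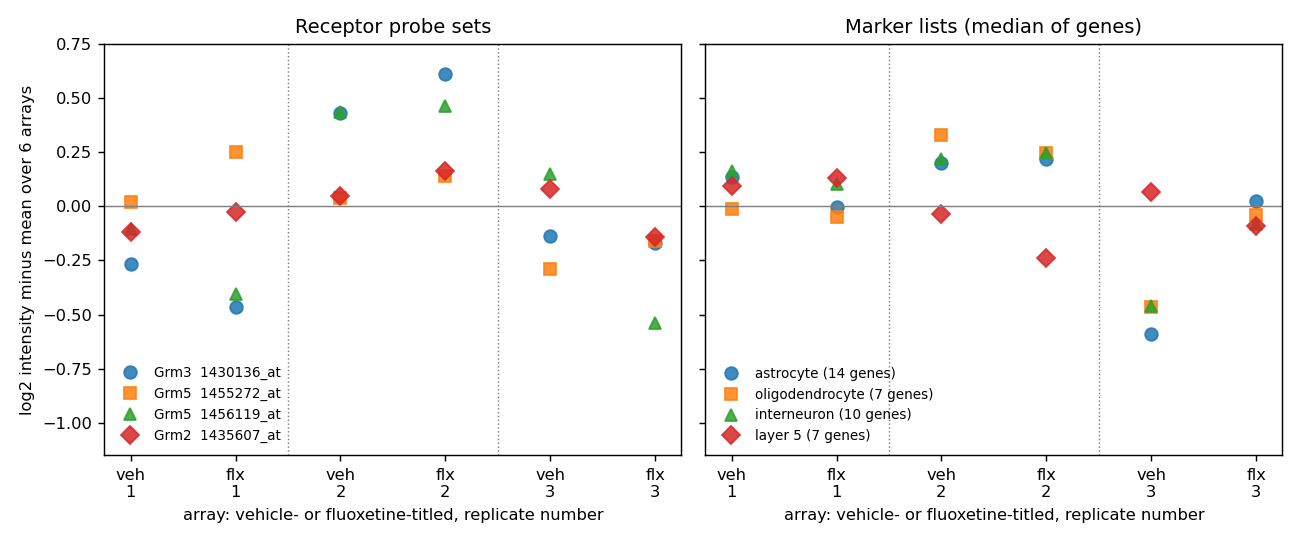
Log2 intensity minus the mean over the 6 arrays, for 4 receptor probe sets (left) and for the median of 4 marker lists (right), with arrays ordered by replicate number. Grm3 and the dimmer Grm5 probe set are highest on both arrays numbered 2, and astrocyte, oligodendrocyte and interneuron markers are lowest on vehicle-titled array 3.

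Genes that carry the receptors' signals were read from 4 lists, and 0 of their members passed in limma with or without the block (adjusted p of at least 0.993 for every gene named here). Over all 10830 genes kept, 47.8% were higher in the fluoxetine-titled arrays and the median log2 difference was -0.0068. In the Gq and phospholipase C arm, which serves Grm5, 3 of 9 genes kept were higher and 6 lower, with a median of -0.065. The phospholipase C gene Plcb4 had intensities of 2336, 1899 and 1638 against 2423, 2613 and 1871, a log2 difference of -0.24 ± 0.19, and was lower in each pair. The protein kinase C gene Prkca had the lowest p among the genes that were higher, with 0.13 ± 0.16.

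In the Gi/o arm, which serves the other 5 receptors, 6 of 18 genes were higher and 12 lower, with a median of -0.034. With pair 1 left out, 9 of 18 were higher and the median was -0.0015. Rgs7, which shortens Gi/o signals, had a log2 difference of -0.13 ± 0.13 and was lower in all 3 pairs (-0.036, -0.17 and -0.18). The G protein gamma subunit gene Gng2 had 0.21 ± 0.25, from pair values of -0.069, 0.92 and -0.24 that share no direction.

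Among receptor-binding and scaffold proteins, 8 of 14 genes were higher and 6 lower, with a median of 0.0082. Homer1, which links Grm5 to intracellular calcium stores, had intensities of 4342, 3677 and 4339 on the fluoxetine-titled and 5534, 4003 and 3959 on the vehicle-titled arrays. Vehicle-titled array 1 was the high one, and the log2 difference was -0.11 ± 0.18. Grasp, whose product tamalin scaffolds metabotropic receptors, had -0.20 ± 0.14 and was lower in each pair, by pair values of -0.34, -0.21 and -0.039. Elfn1, a synaptic adhesion protein that recruits Grm7, had intensities of 66.2, 84.6 and 62.9 against 64.8, 80.1 and 60.1, a log2 difference of 0.059 ± 0.18.

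Genes that supply or clear glutamate and the peptide transmitter NAAG, an agonist of Grm3, were higher in 6 of 8 cases, with a median of 0.13. Without pair 3 it was 3 of 8, with a median of -0.0044. Pair 3 also had the raised astrocyte median, and 2 genes, Slc1a2 and Slc1a3, are in both lists. The part of astrocyte RNA in this count was not tested. The NAAG synthetase gene Rimkla had intensities of 190.5, 249.1 and 209.2 against 153.9, 228.8 and 171.2. It was higher in each pair, and the log2 difference was 0.24 ± 0.19. The neuronal glutamate transporter gene Slc1a1 had -0.11 ± 0.13, while Slc1a2 and Slc1a3 had 0.13 ± 0.37 and 0.19 ± 0.33.

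**Figure D5:**
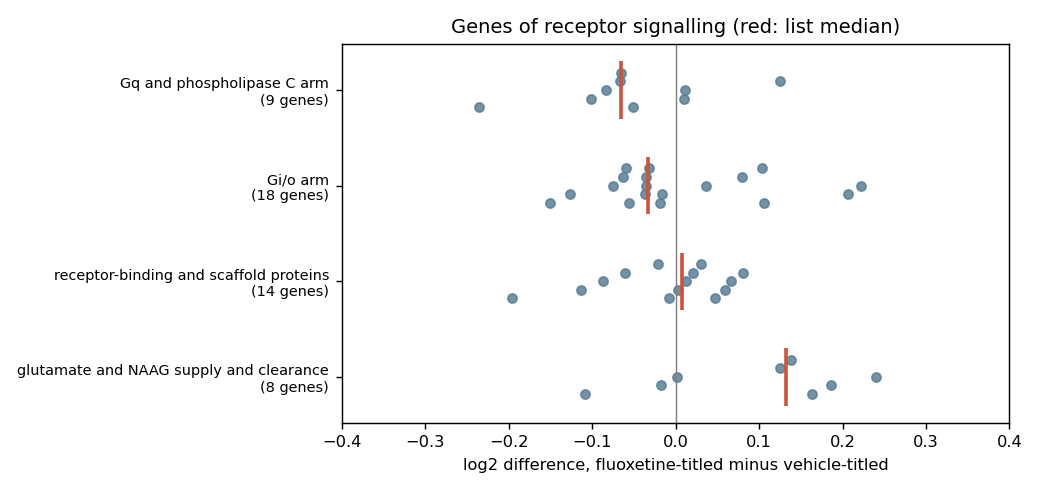
Log2 difference, fluoxetine-titled minus vehicle-titled, of each gene kept in the 4 signalling lists (dots, 1 probe set per gene, spread vertically for legibility) with the list median in red. The medians lie between -0.065 and 0.13, and all genes lie within 0.4 of 0.

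For each receptor, the genes whose log2 intensity over the 6 arrays ran closest to its probe set of highest mean were found among 10829 others. With 6 arrays that share replicate numbers such matches are plentiful, so they are given as a description of the pattern only. Grm8 had 263 genes with a Pearson correlation above 0.9, Grm7 had 223, Grm3 had 158, Grm5 had 155, Grm2 had 30 and Grm4 had 28. The closest to Grm8 were Hsd3b7 (r = 0.995, Spearman 0.943) and Tbc1d8b (0.993 and 0.943), and they were 0.989 and 0.983 without the 2 arrays farthest from the receptor's median. Hsd3b7 had 100.5, 81.2 and 68.8 on the fluoxetine-titled and 118.0, 101.0 and 79.0 on the vehicle-titled arrays, so it too was lower in each pair and lowest on the arrays numbered 3. The closest to Grm4 were Gga2 (r = 0.986, Spearman 1) and Casz1 (0.977 and 0.943). Casz1, a zinc finger transcription factor gene, had 65.8, 60.2 and 64.6 against 86.0, 87.4 and 88.0, with no overlap between the groups.

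Grm3 ran closest to Dcaf13 (r = 0.99, Spearman 0.829) and Mtrex (0.979 and 0.886). The match to Mtrex was 0.753 without the arrays numbered 2, so it rests in part on them, while the other matches to receptors other than Grm8 lay between 0.917 and 0.987 without the 2 farthest arrays. Grm7 ran closest to Lactb (0.995 and 0.943) and Slc22a5 (0.993 and 0.943), each highest on vehicle-titled array 1 and lowest on vehicle-titled array 3. The brighter Grm5 probe set ran closest to the chaperone gene Hsp90aa1 (0.996 and 0.943) and Sepsecs (0.992 and 1), although Hsp90aa1 moved only between 25490 and 26380. Grm2 ran closest to the sugar transporter gene Slc45a1 (0.979 and 0.943) and to Aldh16a1 (0.978 and 0.886).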

How the data were processed

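The deposited table holds, per the submitters' processing notes, GCRMA values, 1 intensity for each probe set on each array. The GCRMA version is not given in the sources used. The values were read as linear, with array medians from 23.03 to 23.45. Control probe sets (64) were dropped, and those with a group mean of at least 50 in either treatment were tested (19073). Symbols came from the platform annotation, and a match of Entrez identifiers to RefSeq (GRCm38.p6) altered 0 of them. Log2 intensities were fitted with limma 3.58.1 in R 4.3.3 (lmFit, eBayes, two-sided, Benjamini-Hochberg over all probe sets tested), without a replicate block. The code was tested on simulated data.

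Titles give the replicate numbers. Deviations from the group means correlated at 0.74, 0.60 and 0.50 between arrays of the same number, and at -0.59 to 0.26 otherwise, so same-numbered arrays are treated as pairs. P-values measure the spread between these samples, whose separate origin the labels do not detail.

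Members, lists and tests were chosen with earlier results of these data known. Named signalling genes are the one of lowest p in each direction per list, plus Homer1, Slc1a2 and Slc1a3. Each receptor was matched to the 2 genes of closest pattern. The number of arrays limits the precision throughout.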

Additional observations from a re-analysis of the deposited data

How the results depend on the processing

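Each of the 7 receptor probe sets kept was refitted under 17 alternatives: the replicate block, quantile normalization, median centring, other filters, a floor of 50, an added 16 before log2, an intensity trend, and single arrays or pairs left out. No receptor probe set and no probe set of the table passed an adjusted p of 0.05 in any of them (limma, adjusted p of at least 0.993 for the receptors; 767 probe sets had an unadjusted p under 0.05 with the replicate block and 121 without it). The replicate block changed no call. Grm4, Grm8 and both Grm5 probe sets kept their sign throughout, between -0.18 and -0.14, -0.45 and -0.11, 0.049 and 0.27 (brighter), and -0.63 and -0.13 (dimmer). With arrays or pairs left out the sign turned for Grm2 (-0.088 to 0.10), Grm3 (-0.33 to 0.21) and Grm7 (-0.20 to 0.12), and it turned in 12 of 119 refits in all. Read from the second probe set by mean, Grm5 went from 0.16 to -0.32. With a pair left out, the number of genes that were higher lay between 3 and 6 of 8 for glutamate and NAAG supply and clearance, 7 and 9 of 18 for the Gi/o arm, 2 and 3 of 9 for the Gq arm and 6 and 9 of 14 for receptor-binding proteins.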
